A study of Danio rerio with 24 samples.

Results

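The transcripts described here encode the ubiquitin system and the proteasome, as stored in mature, unfertilized zebrafish eggs. A transcript was counted where its name in the study's gene tables, or the symbol of its gene, began with a prefix of ubiquitin and proteasome genes (usp, ube, psm, rnf, trim, fbx, cul, ubx, ubr, ubl, herc, otud, uba, klhl and nedd), and where its mean over all eggs was at least 7 on the log2 scale. This gave 78 transcripts, each read by 1 probe, of the 88754 transcripts on the array. The tables name 91 such transcripts, and 13 of them fell below the level minimum. The lowest inside it were fbxo44.8 with a mean of 7.11, UBE2QL1 with 7.17 and rnf169 with 7.30, and the highest outside it were ube3b with 6.93, trim25 with 6.91 and usp8 with 6.89. No member began with herc or otud.

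In the 24 libraries a library is 1 egg. The eggs were squeezed from 5 sisters of genotype wt ABTL, with 5 eggs of each of mothers 1 to 4 and 4 eggs of mother 5, and no treatment was compared. Each mother gave 1 clutch, so what belongs to a mother and what belongs to her clutch cannot be told apart. A p-value here measures the difference between clutches against the spread between eggs of 1 clutch, not the spread between repeated clutches of a mother. Of the egg markers that could be read, npm2a, cldnd and h1m were called present on all 24 arrays. h1m, which is held through the mother-specific table, differed 7.38-fold between mothers 1 and 3. Of the markers of follicle cells, the cells that surround the growing egg, only lhcgr could be read. It is also held through the mother-specific table, so its values are a description. It was called present on 5 arrays, with a mean of 7.59 in mother 2 and means of 6.26 to 6.33 in the other mothers. Its part in the values of mother 2 was not tested.

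Ubiquitin is a small protein that is attached to other proteins by a relay of enzymes. An activating enzyme (E1) charges ubiquitin, a conjugating enzyme (E2) carries it, and a ligase (E3) picks the protein to be marked. Cullin ligases are assembled from a cullin scaffold, a RING protein and an exchangeable receptor such as an F-box protein, and they are switched on by the ubiquitin-like protein Nedd8. Marked proteins are unfolded and cut by the proteasome, a barrel-shaped core of alpha and beta subunits capped by a regulatory particle, and deubiquitinases take the mark off again. In eggs this machinery is known for driving exit from meiosis and for clearing maternal proteins at the start of development, before the embryo transcribes its own genes.

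How the members were listed decides what can be tested. Of the 78 transcripts, 50 come from a table of expressed genes that was made without regard to mothers. Another 23 are held only because they were in a table of mother-specific genes, and 5 only because they had passed an F-test over the mothers. Those 28 were chosen with the comparison described here, so their values are given as a description and carry no test. They are marked with an asterisk in the plots.

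All 78 transcripts were called expressed, and among the 50 from the expressed-gene table the clutches differed about as often as for any other transcript. The moderated F-test over the 5 mothers called 29 of the 50 (58%), beside 61.6% of all 26870 expressed transcripts and 65.3% of the 1867 transcripts of that table. A pair of mothers differed over 2-fold in 2 of the 50 (4%), beside a background of 10.4% of all and 10.9% of that table. These were fbxo25, an F-box receptor, and psmg3, a chaperone of proteasome assembly. Mothers with the highest and the lowest mean differed by a median of 1.36-fold in the 50 transcripts and 1.37-fold over all expressed ones. A share of 49.3% of the variance lay between mothers for the median member, and 49.1% for the median expressed transcript. The share called by the F-test lay near the background, and that of differences over 2-fold below it, a difference that was not tested. That second share depended on the setting. With a fold of 1.5 it was 15 of the 50, beside 32.1% of all, and with median centring 33 of the 50, beside 48.3%. Leaving out 1 egg at a time gave between 27 and 32 calls, beside 58.3% to 66.8% of all expressed transcripts.

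The spread was also taken without a test. The maximum fold change (mFC) is the highest over the lowest signal among the 24 eggs, and the clutch mFC is the widest such fold among eggs of 1 mother. Of the 50 transcripts, 19 (38%) had an mFC over 2, beside 44.2% of all expressed transcripts and 46.2% of that table, and 45 (90%) had a clutch mFC of at most 2, beside 89.3% and 90%. The median mFC was 1.93 and the median clutch mFC 1.51. Clutch ranges were merged where they overlapped, and 5 of the 50 (10%) kept at least 2 levels apart, beside a background of 18.2% and 18.4%. These were fbxo25, psmg3, trim36, rnf7 and fbxl20, the last pair named after their values were seen. The count rested on narrow gaps, since 2 were counted when levels had to lie 0.2 apart.

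**Figure D1:**
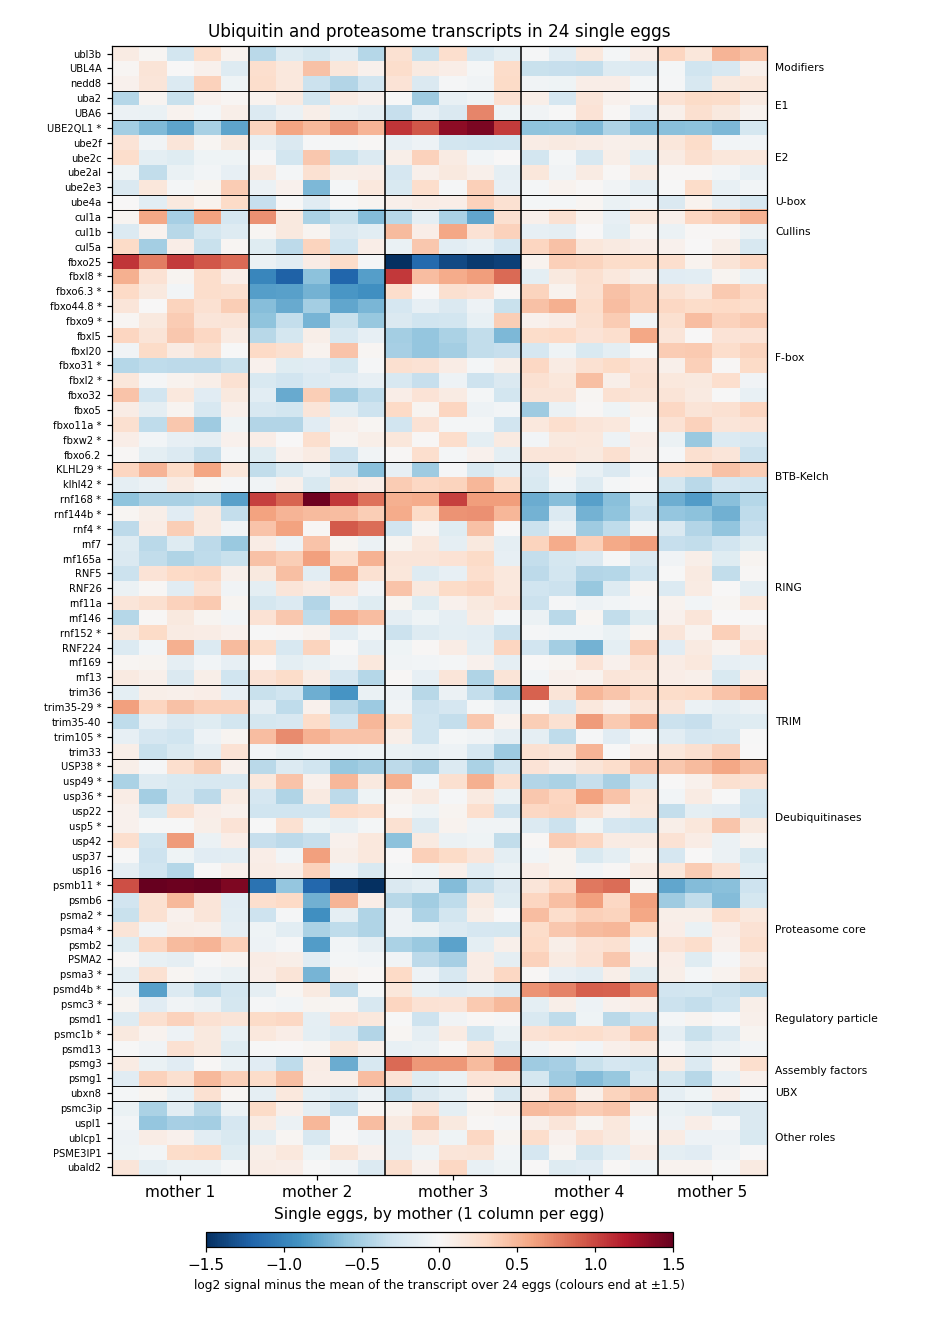
Log2 signal of each of 76 of the transcripts (rows, grouped by role) in each of the 24 eggs (columns, by mother), minus the transcript's own mean. Red is above and blue below that mean, an asterisk marks the 28 transcripts chosen with the comparison of mothers, and the blocks of 1 colour over all eggs of a mother are clearest for fbxo25, psmb11, UBE2QL1, rnf168 and fbxl8.

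**Figure D2:**
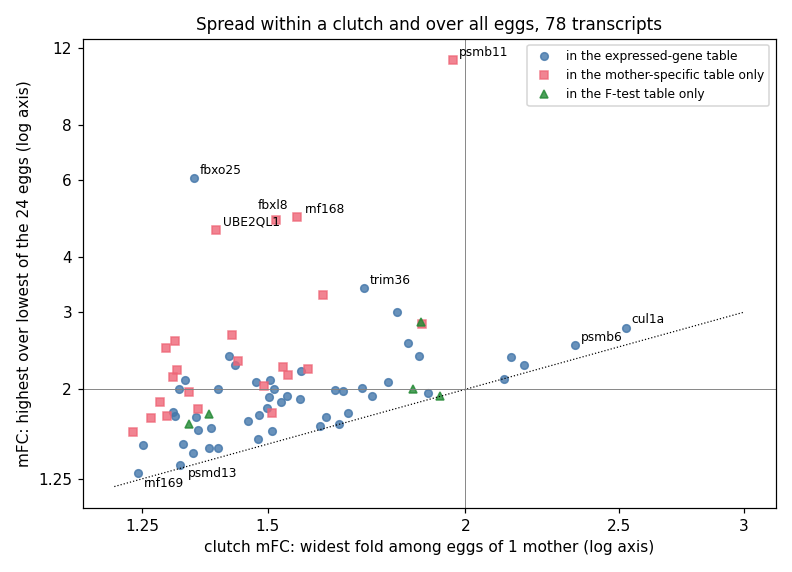
Each point is 1 of the 78 transcripts, with the clutch mFC across and the mFC over all 24 eggs upward, both on log axes, grey lines at 2 and a dotted line where both are equal. Most points lie below a clutch mFC of 2, psmb11 and fbxo25 stand highest, and cul1a and psmb6 lie to the right, near the dotted line.

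Among the transcripts of the modifiers themselves, the F-test called neither nedd8 nor rps27a, and the clutches stood further apart for the polyubiquitin gene ubb. rps27a, which encodes ubiquitin fused to a ribosomal protein, was not chosen by its name and comes from the wider list of pathway genes. Its mother means ran from 14.37 to 14.48 on the log2 scale, with an adjusted p of 0.95 for the F-test.

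The transcript of nedd8, which activates cullins, gave 10.04, 10.17, 10.31, 10.42 and 10.59 in mother 1, 9.80, 9.91, 9.95, 10.39 and 10.51 in mother 2, 10.02, 10.19, 10.22, 10.44 and 10.53 in mother 3, 10.17, 10.19, 10.21, 10.34 and 10.34 in mother 4 and 10, 10.22, 10.39 and 10.41 in mother 5. All 5 clutches overlapped. The difference between mothers 1 and 2 was 0.19 ± 0.13 (SE), with an adjusted p of 0.66 over the mothers. ubb, a gene of ubiquitin repeats, is held through the mother-specific table and is described only. It read 8.19, 8.49, 8.53, 8.62 and 8.77 in mother 1, 7.76, 8.04, 8.24, 8.32 and 8.45 in mother 2, 9.34, 9.57, 9.66, 9.68 and 10.20 in mother 3, 7.86, 8.03, 8.21, 8.24 and 8.59 in mother 4 and 8.46, 8.78, 8.84 and 9.22 in mother 5. The eggs of mother 3 lay above all others, and the fold between mothers 3 and 2 was 2.89. ubl3b, a ubiquitin-like protein anchored in membranes, was highest in mother 5, with a range of 8.64 to 8.99. It was lowest in mother 2 with 8.05 to 8.32, a 1.57-fold difference (adjusted p = 0.0015, and 0.159 with median centring). UBL4A, which in human cells helps to deliver proteins to membranes, differed 1.42-fold between mothers 2 and 4 (adjusted p = 0.00023).

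**Figure D3:**
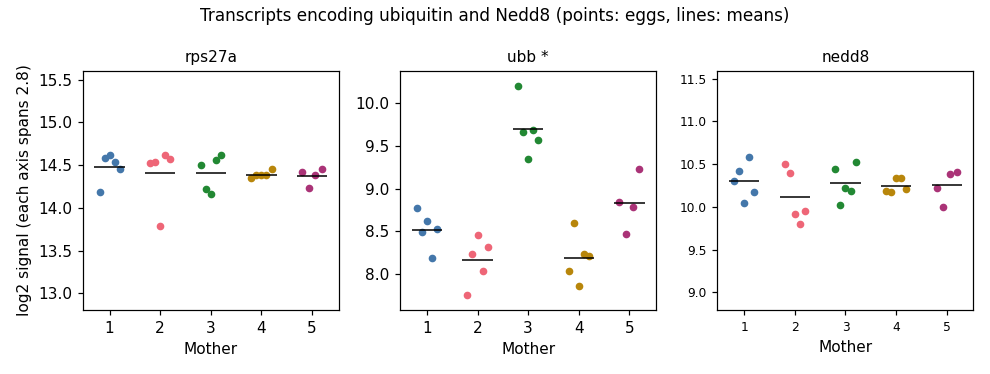
Log2 signal of 3 transcripts that encode ubiquitin or Nedd8, with 1 point per egg, a line at the mean of each of the 5 mothers and axes of equal span. The points of rps27a and nedd8 overlap across mothers, and those of ubb, chosen with the comparison, stand highest in mother 3.

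At the head of the relay, neither of the 2 E1 transcripts tested was called, beside 61.6% of all expressed transcripts. The median fold of the tested transcripts was 1.22 for the E1 and 1.20 for the E2 enzymes. uba2, a subunit of the E1 for the related modifier SUMO, ranged over 11.21 to 11.71 in mother 1, 11.38 to 11.78 in mother 2, 11.12 to 11.87 in mother 3, 11.39 to 11.82 in mother 4 and 11.78 to 11.94 in mother 5, and its extremes differed 1.28-fold (adjusted p = 0.13). With the mean signal of each array as a covariate this p was 0.0121. UBA6, an alternative E1 for ubiquitin, had a 1.16-fold difference and an adjusted p of 0.68.

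Of the 4 E2 transcripts tested, only ube2f was called, beside 61.6% of all expressed transcripts. It encodes the E2 that hands Nedd8 to a cullin, and it ranged over 10.12 to 10.39, 9.96 to 10.20, 9.88 to 10.10, 10.26 to 10.32 and 10.14 to 10.46 in mothers 1 to 5, with mother 4 highest and mother 3 lowest (0.32 ± 0.08, adjusted p = 0.0023). All 5 eggs of mother 4 lay above all 5 of mother 3. The call was lost with processed signals scaled to the 75th percentile, with median centring and with the ratio to the Cy5 reference, where the adjusted p reached 0.375. ube2c, the partner of the anaphase-promoting complex, ube2al, a relative of the E2 of DNA damage tolerance, and ube2e3 had folds of 1.22, 1.18 and 1.14 and did not pass the test.

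UBE2QL1, an E2-like gene, differed far more and is described only, because it was listed as mother-specific. Its eggs read 6.31, 6.31, 6.45, 6.60 and 6.61 in mother 1, 7.44, 7.59, 7.61, 7.69 and 7.77 in mother 2, 8.04, 8.15, 8.18, 8.45 and 8.52 in mother 3, 6.45, 6.45, 6.51, 6.51 and 6.64 in mother 4 and 6.43, 6.48, 6.49 and 6.83 in mother 5. Mother 3 stood above mother 2, and mother 2 above the other mothers, without overlap. The means of mothers 3 and 1 differed 3.51-fold. Its probe was well above background in 1 of 5 eggs of mother 1, 4 of 5 of mother 4, 3 of 4 of mother 5 and in every egg of mothers 2 and 3.

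F-box proteins, the receptors of cullin ligases, included the largest fold among the ligases. Of the 6 tested, 4 were called, beside 61.6% of all expressed transcripts. The median fold of those 6 was 1.56, beside 1.37 over all expressed transcripts. fbxo25 was the member of the expressed-gene table with the largest difference. Its eggs read 10.54, 10.61, 10.69, 10.81 and 10.83 in mother 1, 9.61, 9.68, 9.74, 9.87 and 10.04 in mother 2, 8.23, 8.32, 8.36, 8.41 and 8.59 in mother 3, 9.81, 10.04, 10.05, 10.10 and 10.12 in mother 4 and 9.82, 9.95, 10.02 and 10.08 in mother 5. Mother 1 lay above all other clutches and mother 3 below all of them, while mothers 2, 4 and 5 overlapped. The widest gap between levels, 1.01, lay above mother 3. Below mother 1 the gap was narrower, from 10.54 to 10.12. Mothers 1 and 3 differed by 2.31 ± 0.09 on the log2 scale, a 4.97-fold difference, with an adjusted p of 3.0e-15. On the 4 slides that carried both mothers the difference ran from 1.94 to 2.49.

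Also called were fbxl5, which in mammals senses iron and marks an iron regulatory protein, fbxl20 and fbxo5. fbxl5 was highest in mother 4 and lowest in mother 3 (1.80-fold, adjusted p = 6.2e-08). fbxl20 was lowest in mother 3, with means of 8.28, 8.37, 7.70, 8.02 and 8.50 for mothers 1 to 5 (adjusted p = 2.1e-07). fbxo5, which encodes an inhibitor of the anaphase-promoting complex, differed less, 1.34-fold between mothers 5 and 2 (adjusted p = 0.018). Mother 3 was the lowest for 3 of these 4 transcripts, beside 21.9% of all called transcripts. With median centring it was the lowest for 1 of the 4. fbxo32, known as a muscle atrophy ligase, and fbxo6.2 did not pass, with adjusted p of 0.096 and 0.099. The latter was the steadiest F-box transcript, with ranges of 7.08 to 7.46, 7.12 to 7.57, 7.30 to 7.70, 7.52 to 7.68 and 7.12 to 7.68 in mothers 1 to 5. Without egg 4 of mother 5 its adjusted p was 0.0341.

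Another 6 F-box transcripts were listed as mother-specific only, and mother 2 was lowest in 4 of them, or in 5 with processed signals. Over all roles mother 2 was lowest in 11 of the 23 members held that way (47.8%), beside 25.3% of all called transcripts. Among the 29 called members of the expressed-gene table it was lowest in 4 (13.8%). The 23 were chosen with the comparison, so this gap was not tested. fbxl8 read 8.35, 8.40, 8.53, 8.57 and 8.84 in mother 1, 7.09, 7.12, 7.33, 7.49 and 7.69 in mother 2, 8.77, 8.86, 8.93, 9.16 and 9.37 in mother 3, 8.17, 8.40, 8.46, 8.47 and 8.55 in mother 4 and 8.14, 8.15, 8.21 and 8.35 in mother 5. Every egg of mother 2 lay below all others, and mothers 3 and 2 differed 3.19-fold. fbxo9 had the same arrangement with a 1.82-fold difference between mothers 5 and 2, but by a gap of 0.03, beside 0.45 for fbxl8. fbxl2 and fbxo31 differed 1.39-fold and 1.53-fold, with mothers 3 and 1 lowest. fbxo11a and fbxw2, listed through an F-test, had folds of 1.34 and 1.29.

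The same clutch was low for a pair of neighbouring genes of the F-box family that recognizes sugar-bearing proteins. fbxo6.3 read 8.71, 8.89, 8.99, 9.01 and 9.05 in mother 1, 7.83, 7.88, 7.92, 7.93 and 8.04 in mother 2, 8.75, 8.77, 8.95, 8.996 and 9.02 in mother 3, 8.80, 8.98, 9.09, 9.12 and 9.19 in mother 4 and 8.90, 8.98, 9.07 and 9.15 in mother 5. fbxo44.8 read 7.05, 7.23, 7.28, 7.38 and 7.42 in mother 1, 6.27, 6.29, 6.36, 6.40 and 6.54 in mother 2, 6.71, 6.80, 6.83, 6.92 and 6.97 in mother 3, 7.32, 7.42, 7.49, 7.51 and 7.59 in mother 4 and 7.31, 7.32, 7.35 and 7.36 in mother 5. For both transcripts every egg of mother 2 lay below every other egg, and the folds between mothers 4 and 2 were 2.17 and 2.13. The fbxo44.8 probe was well above background in 1 of the 5 eggs of mother 2 and 4 of the 5 of mother 3. In the RefSeq annotation of assembly GRCz12tu, 3 genes lie between fbxo6.3 and fbxo44.8, and 1 gene lies between fbxo6.3 and fbxo6.2. The third neighbour, fbxo6.2, overlapped across all 5 mothers. These genes are close copies, and how far their probes share signal was not tested.

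**Figure D4:**
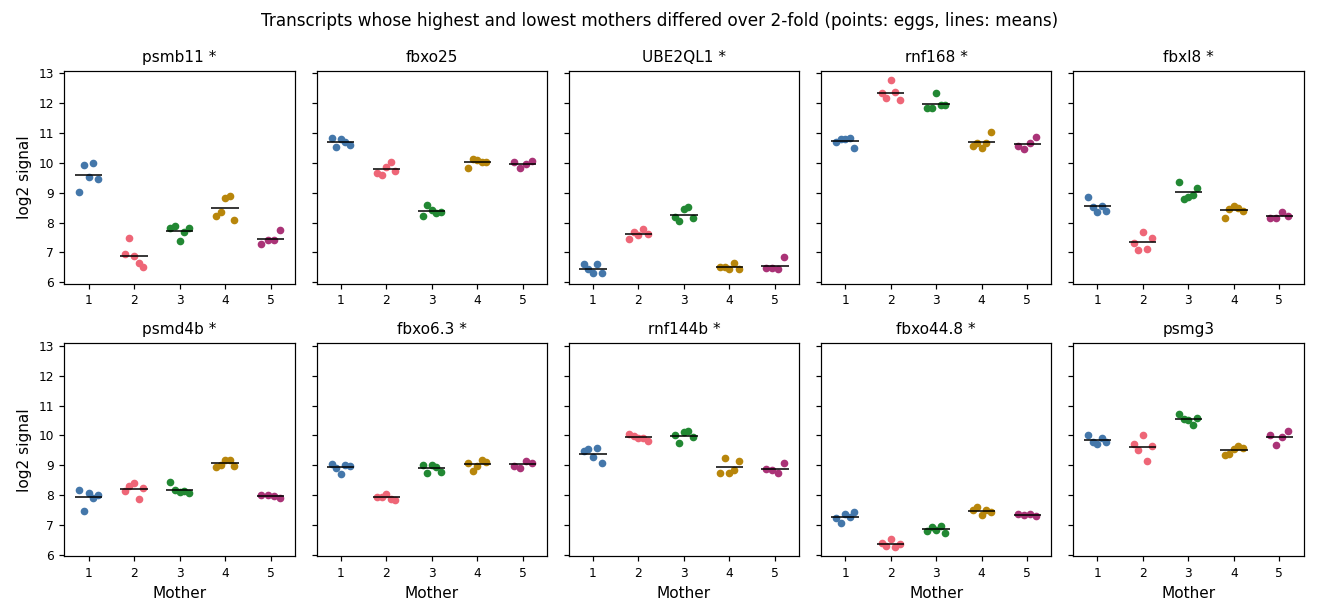
Log2 signal of the 10 transcripts whose highest and lowest mother means differed over 2-fold, with 1 point per egg, a line at each mother's mean and 1 shared vertical axis. fbxo25 and psmg3 come from the expressed-gene table and the other 8, with an asterisk, were chosen with the comparison, and the spread within a mother is small beside the steps between mothers in most of them.

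Of the scaffolds, cul1b was called and its paralogue cul1a was not. cul1b, a scaffold for F-box receptors, was highest in mother 3 (1.46-fold over mother 1, adjusted p = 0.00040). cul1a had the larger fold, 1.56, but also the widest spread within a clutch of all 78 transcripts, with a clutch mFC of 2.53. Its eggs covered 8.89 to 9.9996 in mother 1, 8.74 to 10.07 in mother 2, 8.61 to 9.63 in mother 3, 9.26 to 9.62 in mother 4 and 9.47 to 9.91 in mother 5 (adjusted p = 0.15). Without egg 1 of mother 2 its adjusted p was 0.0363. cul5a, the scaffold of a separate ligase class, ranged over 7.13 to 7.94, 7.25 to 7.98, 7.39 to 8.05, 7.74 to 8.08 and 7.40 to 7.74 in mothers 1 to 5 and was not called (adjusted p = 0.26). Its RING partner rnf7 was called, with means of 12.69, 13.12, 13.05, 13.53 and 12.74 (adjusted p = 7.3e-07). The eggs of mothers 1 and 5 lay below those of the other 3 mothers, by a gap of 0.05. The BTB-Kelch transcripts KLHL29 and klhl42, receptors of another cullin, are described only. KLHL29 ranged over 10.03 to 10.46 in mother 1 and 9.24 to 9.75 in mother 2, and klhl42 over 8.29 to 8.53 in mother 3 and 7.63 to 7.78 in mother 5, their highest and lowest mothers.

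Of the other 8 RING transcripts tested, 4 were called (50%), beside 61.6% of all expressed transcripts. In mother 2 rnf165a and RNF5 were highest, in mother 1 rnf11a and in mother 3 RNF26. The folds of these 4 ran from 1.39 for rnf11a to 1.73 for rnf165a. RNF5, which acts in the disposal of misfolded proteins of the endoplasmic reticulum, differed 1.53-fold between mothers 2 and 4 (adjusted p = 0.0040). rnf13, rnf146, rnf169 and RNF224 did not pass. rnf169, which binds ubiquitin-marked chromatin at DNA breaks, had the smallest mFC of all 78 transcripts, 1.29. Its eggs covered 7.09 to 7.26, 7.08 to 7.39, 7.09 to 7.30, 7.23 to 7.44 and 7.11 to 7.39 in mothers 1 to 5, with an adjusted p of 0.35.

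rnf168, the ligase that marks chromatin at DNA breaks, had a quite different course and is described only. It read 10.49, 10.69, 10.81, 10.81 and 10.84 in mother 1, 12.12, 12.17, 12.33, 12.37 and 12.76 in mother 2, 11.83, 11.86, 11.93, 11.93 and 12.33 in mother 3, 10.49, 10.56, 10.66, 10.68 and 11.04 in mother 4 and 10.46, 10.57, 10.67 and 10.88 in mother 5. The eggs of mothers 2 and 3 lay above those of the other mothers, and the means of mothers 2 and 5 differed 3.26-fold. rnf144b showed the same division, with 9.09, 9.28, 9.48, 9.54 and 9.58 in mother 1, 9.82, 9.91, 9.93, 9.96 and 10.06 in mother 2, 9.74, 9.95, 10.01, 10.13 and 10.14 in mother 3, 8.74, 8.75, 8.84, 9.13 and 9.25 in mother 4 and 8.73, 8.84, 8.87 and 9.07 in mother 5. Its fold between mothers 3 and 5 was 2.16. rnf4, listed through an F-test, differed 1.94-fold, and rnf152 1.32-fold.

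Of the U-box ligases, ube4a was called. It lengthens ubiquitin chains and ranged over 8.02 to 8.46, 7.83 to 8.21, 8.25 to 8.52, 8.08 to 8.21 and 7.94 to 8.23 in mothers 1 to 5 (0.30 ± 0.09 between mothers 3 and 5, adjusted p = 0.029). Leaving out egg 1 or 4 of mother 5, or egg 4 or 5 of mother 3, took the adjusted p past the threshold, to 0.0779 at most. The call was also lost with the array position as a block, without the brightest array of each clutch, with median centring and with the Cy5 ratio, up to 0.34. Its neighbour RNF26, with 2 genes between them in RefSeq, was also highest in mother 3, but lowest in mother 4. Another neighbouring pair, psma2 and rnf144b with 3 genes between them, differed in both the highest and the lowest mother.

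All 3 TRIM ligases of the expressed-gene table were called, beside 61.6% of all expressed transcripts. Mother 4 was highest in each, beside 24.5% of all called transcripts. The same held under every scaling tried, though median centring put 22 of the 29 called members highest in mother 4. trim36, which in Xenopus eggs is required for the cortical rotation that sets the dorsal side, read 10.69, 10.71, 10.91, 10.93 and 10.94 in mother 1, 9.95, 10.10, 10.50, 10.54 and 10.74 in mother 2, 10.30, 10.42, 10.48, 10.75 and 10.76 in mother 3, 11.03, 11.14, 11.25, 11.34 and 11.72 in mother 4 and 11.11, 11.13, 11.26 and 11.38 in mother 5. The eggs of mothers 4 and 5 lay above those of mothers 1, 2 and 3, with a gap of 0.10. Mothers 4 and 2 differed by 0.93 ± 0.14, or 1.91-fold (adjusted p = 6.0e-06, and 0.0679 with median centring). trim35-40 ranged over 7.06 to 7.31, 7.15 to 7.94, 7.08 to 7.84, 7.66 to 8.07 and 7.08 to 7.26 in mothers 1 to 5 (adjusted p = 0.0021). trim33, a regulator of blood formation in zebrafish, differed 1.34-fold (adjusted p = 0.0075), with means of 8.68 in mother 4 and 8.67 in mother 5. In trim105 and trim35-29, described only, mothers 2 and 1 were highest, by folds of 1.59 and 1.63.

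Among deubiquitinases the differences were small. Of the 4 tested, usp22 and usp37 were called and usp16 and usp42 were not, beside 61.6% of all expressed transcripts called. The folds of the 4 ran from 1.24 to 1.38. usp22, part of a complex that takes ubiquitin off histones, ranged over 10.57 to 11.04, 10.51 to 11.10, 10.50 to 11.06, 10.89 to 11.14 and 10.45 to 10.66 in mothers 1 to 5, with an adjusted p of 0.040. That call was near the threshold and was lost without any 1 of the 4 eggs of mother 5, or without egg 1, 2, 3 or 5 of mother 4, up to an adjusted p of 0.0945. It was also lost with the array position or the egg number as a block, with variances left unmoderated, without the expression filter, without the brightest array of each clutch, and with processed signals, median centring or the Cy5 ratio, up to 0.179. usp37, known to stabilize a cyclin, differed 1.25-fold between mothers 2 and 1 (adjusted p = 0.024). USP38 was the widest of the group and is described only, with 9.16 to 9.34 in mother 5 and 8.19 to 8.55 in mother 2, a 1.84-fold difference. usp36, usp49 and usp5 had folds of 1.51, 1.62 and 1.35.

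The proteasome transcripts did not move as 1 unit. Of the 5 subunit transcripts tested, PSMA2, psmb2, psmb6 and psmd1 were called and psmd13 was not, beside 61.6% of all expressed transcripts called. Their highest mothers were mother 4 for PSMA2 and psmb6 and mother 1 for psmb2 and psmd1. PSMA2, an alpha subunit that RefSeq names psma2b, read 12.69, 12.72, 12.82, 12.85 and 12.87 in mother 1, 12.66, 12.79, 12.81, 12.92 and 12.95 in mother 2, 12.33, 12.44, 12.70, 12.78 and 12.94 in mother 3, 12.91, 12.96, 13.05, 13.18 and 13.24 in mother 4 and 12.65, 12.82, 12.94 and 12.96 in mother 5. The top 3 eggs of mother 4 lay above all others, and mothers 4 and 3 differed by 0.43 ± 0.10 (adjusted p = 0.012). With processed signals scaled to the 75th percentile, median centring or the ratio to the Cy5 reference the call was lost, up to an adjusted p of 0.415. psmb6, which carries a cutting site of the core, differed 1.89-fold between mothers 4 and 5 (adjusted p = 0.0013) and had a clutch mFC of 2.34, set by mother 2. psmb2 differed 1.60-fold between mothers 1 and 3 (adjusted p = 0.0024).

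In the regulatory particle, psmd1, a scaffold subunit, was lowest in mother 4 (1.36-fold below mother 1, adjusted p = 0.0023). psmd13 was the steadiest proteasome transcript, with an mFC of 1.35 and ranges of 12.28 to 12.68, 12.45 to 12.62, 12.25 to 12.63, 12.40 to 12.58 and 12.30 to 12.44 in mothers 1 to 5 (adjusted p = 0.54).

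Both assembly chaperones of the core were called, beside 61.6% of all expressed transcripts. Mother 4 was lowest in both, beside 19.1% of all called transcripts. psmg3 read 9.71, 9.78, 9.79, 9.90 and 10.01 in mother 1, 9.14, 9.50, 9.64, 9.71 and 9.997 in mother 2, 10.36, 10.53, 10.53, 10.57 and 10.73 in mother 3, 9.35, 9.38, 9.54, 9.58 and 9.63 in mother 4 and 9.68, 9.94, 10.005 and 10.14 in mother 5. Mother 3 lay above all other clutches. The difference between mothers 3 and 4 was 1.05 ± 0.12, a 2.07-fold difference (adjusted p = 3.6e-07). psmg1, its companion in building the alpha ring, read 10.06, 10.48, 10.58, 10.58 and 10.72 in mother 1, 10.32, 10.33, 10.50, 10.68 and 10.695 in mother 2, 10.05, 10.14, 10.43, 10.44 and 10.44 in mother 3, 9.58, 9.67, 9.70, 9.97 and 10.01 in mother 4 and 9.82, 9.97, 10.12 and 10.29 in mother 5, and mothers 2 and 4 differed 1.65-fold (adjusted p = 8.3e-05). With median centring neither was lowest in mother 4. Both calls were lost there, with an adjusted p of 0.12 for psmg3 and 0.394 for psmg1.

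The other 7 subunit transcripts are described only. psmb11, a beta subunit of the core that RefSeq names psmb12, had the largest fold of all 78 transcripts. It read 9.02, 9.45, 9.52, 9.94 and 9.99 in mother 1, 6.50, 6.65, 6.87, 6.95 and 7.47 in mother 2, 7.40, 7.69, 7.83, 7.83 and 7.89 in mother 3, 8.08, 8.23, 8.36, 8.84 and 8.88 in mother 4 and 7.27, 7.40, 7.42 and 7.74 in mother 5. Mother 1 stood above mother 4 and mother 4 above the other mothers, and the means of mothers 1 and 2 differed 6.49-fold. The probe was well above background in 3 of the 5 eggs of mother 2 and in every egg of the other mothers. psmd4b, a ubiquitin receptor of the regulatory particle, read 7.47, 7.89, 8.002, 8.07 and 8.17 in mother 1, 7.88, 8.14, 8.25, 8.30 and 8.41 in mother 2, 8.08, 8.10, 8.14, 8.16 and 8.45 in mother 3, 8.96, 8.98, 9.02, 9.16 and 9.18 in mother 4 and 7.90, 7.96, 7.99 and 8.01 in mother 5. Every egg of mother 4 lay above every other egg, and mothers 4 and 1 differed 2.20-fold. psma2, psma4 and the ATPase psmc1b also had mother 4 alone at the upper level, with folds of 1.70, 1.62 and 1.35. Their gaps between levels were narrow, 0.01, 0.06 and 0.06, beside 0.51 for psmd4b. The ATPase psmc3 had mother 3 there, 1.46-fold above mother 5, and psma3 differed 1.11-fold.

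Over the 12 core and regulatory transcripts together, mother 4 was highest in 6. Of these, 4 were chosen with the comparison, and among the 5 tested subunits it was highest in 2, beside 24.5% of all called transcripts. The count over the 12 was 6 under every scaling tried apart from median centring, where it was 12. Median centring also moved the median of all expressed transcripts, from -0.43 in mother 1 to 0.54 in mother 4 around their common mean. Before normalization the arrays of mother 4 were bright, with a median array mean of 9.28 on the log2 scale, beside 7.93, 8.15, 9.24 and 8.56 for mothers 1, 2, 3 and 5. Over the 7 core transcripts the median distance from the mean of the mothers was 0.38 in mother 4 and -0.2 in mother 3. Only 3 of the 7 come from the expressed-gene table, so these medians are a description. How often the brightest array of a clutch gave its lowest value was counted over these 7 transcripts only, not over all expressed ones. In mothers 1 to 4 the egg with the brightest array was the lowest of its clutch in 5, 6, 4 and 5 of the 7 core transcripts, and in mother 5 it was so in 2. The part of array brightness in these values was not tested beyond 2 refits. With the array mean as a covariate 34 of the 50 transcripts were called (68%), beside 63.6% of all expressed transcripts. Without the brightest array of each clutch 31 were (62%), beside 63.8%.

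**Figure D5:**
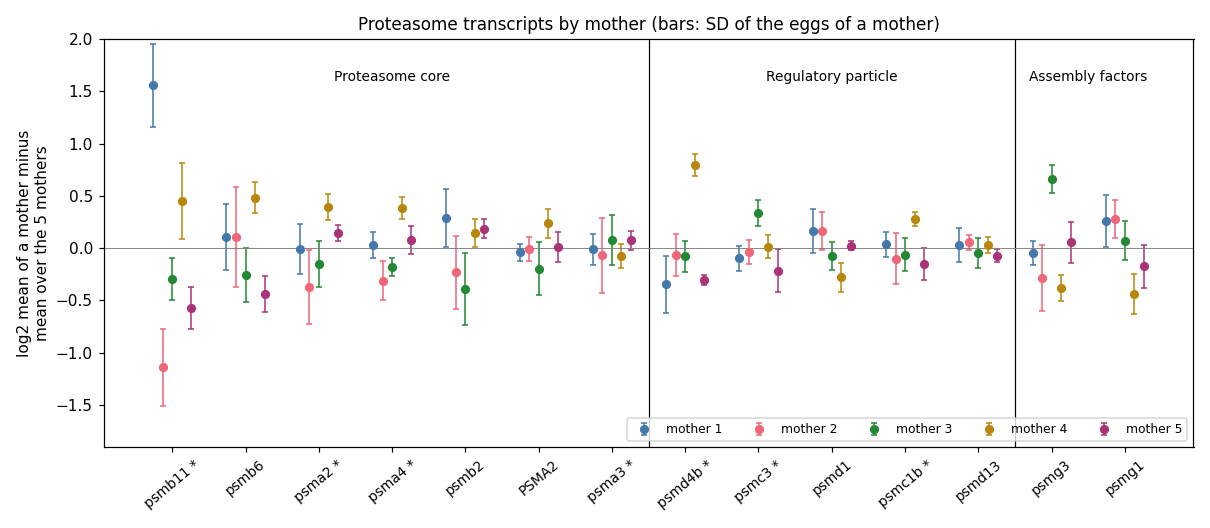
Mean log2 signal of each mother for the 14 proteasome transcripts, minus the mean over the 5 mothers, with bars for the SD of the 5 eggs (4 for mother 5). Mother 4 stands highest for psmb6, psma2, psma4, PSMA2, psmd4b and psmc1b and lowest for psmd1, psma3 and both assembly factors, and the asterisks mark the 7 transcripts chosen with the comparison.

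By mother, 11 of the 29 called transcripts were highest in mother 4 (37.9%), beside 24.5% of all called transcripts, and with median centring 22 were. Mother 3 was highest in 4 (13.8%), beside 25.4%, and mother 5 in 3 (10.3%), beside 17.5%. The lowest mother was mother 3 in 8 (27.6%, beside 21.9%), mothers 1 and 4 in 6 each (20.7%, beside 15.7% and 19.1%), mother 5 in 5 (17.2%, beside 18%) and mother 2 in 4 (13.8%, beside 25.3%). These gaps were not tested. Mothers 3 and 4 were also the pair with the most differences at any fold, 21 transcripts, of which 14 were higher in mother 4 and 7 in mother 3, where all expressed transcripts divided into 18.1% and 18%. Mothers 1 and 5 were the pair with the fewest, 4. Over all expressed transcripts this pair also had the smallest shares of the 10 pairs, 5.33% higher in mother 1 and 5.5% in mother 5. The largest shares there were those of mothers 2 and 4, with 18.2% higher in mother 2 and 21.3% in mother 4.

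A last set of names shares a prefix but encodes neither an enzyme of the ubiquitin relay nor a proteasome subunit. psmc3ip, a partner of meiotic recombination enzymes, ranged over 8.49 to 8.87, 8.62 to 9.24, 8.81 to 9.17, 9.04 to 9.43 and 8.72 to 8.86 in mothers 1 to 5 and was called (1.52-fold, adjusted p = 0.00032), as was uspl1, a protease for SUMO (1.48-fold, adjusted p = 0.0014). PSME3IP1, ublcp1 and ubald2 did not pass. ubald2 ranged over 7.94 to 8.28, 7.89 to 8.21, 7.98 to 8.41, 7.90 to 8.12 and 8.09 to 8.23 and differed 1.12-fold. ubxn8, whose UBX domain binds the unfolding ATPase that feeds the proteasome, was called with ranges of 8.78 to 9.12, 8.68 to 9.05, 8.51 to 8.94, 8.96 to 9.30 and 8.76 to 8.98 (1.36-fold between mothers 4 and 3, adjusted p = 0.0028). That call was lost with median centring and with the Cy5 ratio, up to an adjusted p of 0.148.

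Other genes of the pathway, which the prefixes miss, were read from a wider list of 47 transcripts. Of the 27 held in the expressed-gene table, 19 were called (70.4%), beside the 61.6% of all expressed transcripts, and their median fold was 1.35. The list holds the anaphase-promoting complex, which marks cyclins at meiotic exit. Its activator cdc20 differed 2.26-fold between mothers 4 and 1, with clutches that overlapped, and its subunit ANAPC10 differed 2.04-fold between mothers 3 and 5. anapc11 and anapc16 had adjusted p of 0.73 and 0.26. rbx1, the RING partner of most cullins, and skp2, an F-box receptor, were not called either, with folds of 1.13 each. The unfolding ATPase vcp differed 1.35-fold (adjusted p = 0.0047). The 14 transcripts of the list that were held as mother-specific and the 6 held through an F-test are not tested, and the one with the largest fold was kctd12b, at least 4.83-fold higher in mother 4 than in mother 2, where its probe was well above background in 0 of 5 eggs. This bound sets mother 2 at the lowest signal among probes well above background, or at the probe's own signal where that was higher.

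The Cy5 channel of each array held the same pooled reference, and gives a control in which no mother should differ. There 0 of the 50 transcripts were called by the same limma test, and 0 had an unadjusted p under 0.05. Over all expressed transcripts 0 were called and 195 (0.726%) had such a p. That share lies below the 0.05 that chance alone would give, so this channel does not measure the rate of false calls in Cy3. In the Cy3 channel 31 of the 50 (62%) had one, beside 66.3% of all expressed transcripts. Within slides, 27 of the 32 transcripts named with values kept the direction between their highest and lowest mother on every slide that carried both. Those mothers were picked on the same values, so the count is a description.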

How the data were processed

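Each array measured 1 egg in Cy3 and a pool of eggs in Cy5. According to the methods, total RNA was polyadenylated, depleted of ribosomal RNA, amplified and hybridized to custom zebrafish arrays with 1 probe per transcript. Scanner files are those of Agilent Feature Extraction 10.7.3.1, per the submitters' processing notes, and give the spot intensity as deposited, with flags. The authors also deposited log2 values of the quantile normalized Cy3 signal, which differed by a median of 0.00218 from those computed here. Columns of the study's own tables with fold changes and p-values were not used. Only annotation columns, such as gene names, identifiers and cross-hybridization entries, were read, from parts of 3 tables.

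Here log2 of the Cy3 median signal was quantile normalized over 88754 probes, without 60 spots marked non-uniform. Probes were split by variance at a log2 variance of -3.74, and a probe was called expressed where its probability of belonging to the high-variance class passed 0.95 on at least 4 arrays, which gave 26870. Mothers were compared with limma 3.58.1 in R 4.3.3 by a moderated F-test and 10 pair contrasts, with Benjamini-Hochberg adjustment over all expressed probes and a threshold of 0.05. A fold is 2 to the power of the difference between mother means. SE is that of the pair contrast. No probe's level is set against another's. The study's annotation lists cross-hybridization for many of these probes, those of fbxo25 and psmg3 among them, and shared signal was not tested. Signals were well above background on at least 18 of the 24 arrays for each of the 78 members, and no spot of theirs was saturated or marked non-uniform. The markers and the wider list of pathway genes were not part of this count. Between 24614 and 38241 probes per array were well above background. The number of eggs per mother limits the precision. Unlike the methods, which used an F-test of another package, variances were moderated, and the adjustment for multiple tests also differed. The study, counting by gene, reported nearly all of its expressed genes as differing between mothers, a larger share than was called here. Without moderated variances 28 of the 50 transcripts were called, beside 59.7% of all expressed transcripts. What made the shares differ was not tested.

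The members and gene lists were chosen with earlier results of these data known. Named with values per egg, or with ranges per mother, were the members with the largest fold and the smallest mFC of each role, those over 2-fold, and nedd8 and ubb. Of the 78 members, 2 are counted but not reported by name here. Gene symbols came from the study's tables, or for 17 members from a table of gene identifiers. Neighbours were read from RefSeq assembly GRCz12tu, where 77 of the 78 names matched. Slides held several mothers each, and the slide, array position and egg number were tried as blocks. The tests were checked on simulated data.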

Additional observations from a re-analysis of the deposited data

Results flagged for a closer look

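For the 32 transcripts named with values, the eggs of each mother were searched for 1 egg far from the others by Dixon's test. Of 160 sets, each 1 transcript in the eggs of 1 mother, 7 held such an egg, and chance alone flags about 8. The 160 sets are not independent, since every egg was read for each of the 32 transcripts. UBE2QL1 read 6.835 in egg 4 of mother 5, where the next egg read 6.485. fbxo25 was low in egg 1 of mother 4, at 9.814 beside 10.04. psmd4b was high in egg 1 of mother 3, at 8.446 beside 8.164, and so was rnf168 in egg 3 of that mother, at 12.33 beside 11.93, and cul5a in egg 2, at 8.05 beside 7.538. uba2 was low in egg 3 of mother 2, at 11.38 beside 11.7, and psmc3ip in egg 5 of mother 4, at 9.04 beside 9.34. The last pair are the brightest arrays of their clutches, and so is that of egg 3 of mother 3. The part of brightness in these values was not tested.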

How the results depend on the processing

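The number of transcripts called among the 50 stayed within 1.5 times 29 under most alternatives. It was 4 with median centring and 17 with the ratio to the Cy5 reference, while the share of all expressed transcripts called fell to 12.3% and 44.5%. It was 0 in the reference channel itself. Differences over 2-fold numbered 2 in the report, 5 with processed signals scaled to the 75th percentile, 33 with median centring and 15 with a fold of 1.5. Among all expressed transcripts the shares under these settings, in the same order, were 10.4%, 27.4%, 48.3% and 32.1%. Distinct levels numbered 5 in the report, 2 with a gap of at least 0.2, 0 with median centring and 2 with the Cy5 ratio. They numbered 13 without the brightest array of each clutch, an alternative chosen after seeing the data. Dropping any egg narrows the ranges, so this count could not fall, and no other egg per clutch was dropped for comparison. An mFC over 2 was found for 34 with processed signals, 50 with median centring and 31 with the Cy5 ratio, in place of 19. A clutch mFC of at most 2 was found for 0 with median centring, in place of 45. Under these alternatives distinct levels, mFC and clutch mFC were counted for the 50 only, not for all expressed transcripts. Whether these shifts are particular to the 50 was therefore not tested. Median centring also reversed the differences named for nedd8 (-0.156), ubald2 (-0.133) and psmg1 (-0.258), and the cause was not tested. Leaving out 1 egg at a time gave 27 to 32 calls, beside 58.3% to 66.8% of all expressed transcripts, and 2 to 3 differences over 2-fold. It gave 5 to 7 with distinct levels, 17 to 19 with an mFC over 2 and 45 to 47 with a clutch mFC of at most 2. Counts of distinct levels and of clutch mFCs of at most 2 could not fall here, and those of mFCs over 2 could not rise. Egg numbers only count the eggs of a mother. Eggs with the same number in different mothers deviated together little more than others (median r of 0.0609 beside -0.015). With the egg number as a replicate block 28 of the 50 transcripts were called, beside 59.8% of all expressed transcripts. In that fit 2 differed over 2-fold, beside 10.5% of all. With the slide as a block 28 were called, beside 58.2% of all expressed transcripts, and the array position left 27, beside 59.8%.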
